A study of Mus musculus with 22 samples.

Results

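The miR-23, miR-27 and miR-24 clusters are 2 groups of miRNA hairpins that lie on different chromosomes and carry near-copies of the same 3 miRNAs. They were described in mouse round spermatids (RS), the post-meiotic cells of the male germ line, through 7 mature miRNAs taken by name from the 1966 mature miRNAs of the deposited table of counts. The 7 members are mmu-miR-23a-3p, mmu-miR-27a-3p and mmu-miR-24-2-5p of cluster a, mmu-miR-23b-3p, mmu-miR-27b-3p and mmu-miR-24-1-5p of cluster b, and mmu-miR-24-3p, which both clusters encode. The species prefix is left out below. Of the 7 members 6 had at least 1 count, and miR-27a-3p had 0 counts in all 22 libraries.

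The study asked how loss of GRTH/DDX25, a testis RNA helicase, or of its phosphorylated form alters the small RNAs of RS. RS were isolated from the testes of mice aged 75–85 days by enzyme digestion and settling through an albumin gradient. The 22 libraries fell into 4 groups and 2 experimental batches. One batch held 5 GRTH knock-out libraries (KO) and 5 wild-type libraries (WT). The other held 6 GRTH knock-in libraries (KI) and 6 WT libraries. KO mice lack GRTH in Leydig cells as well as in germ cells, the cells of the testis that make it. KI mice carry a human GRTH gene with an arginine-to-histidine substitution that removes the phosphorylated form and spares the other form. In both lines spermatids stop before they elongate. The labels do not say whether each library came from 1 animal, so p-values measure the spread between libraries, which may be technical.

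Each hairpin is cut from a longer transcript and then into a short duplex, of which 1 strand, the 5p or the 3p product, is usually kept by an Argonaute protein while the other is degraded. The kept strand guides the protein to messenger RNAs through its seed, the bases from position 2 to 8. The clusters are known from blood vessels, muscle, fat and blood cells, where miR-27 restrains fat cell formation, miR-24 restrains cell cycle genes and miR-23 acts in endothelial growth.

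The mature sequences are shown because they decide which members can be told apart. They are RefSeq entries of the build GRCm38.p6, which held 6 of the 7 members. The missing entry is miR-23b-3p, so its sequence was not compared with that of miR-23a-3p. Capitals mark the seed.

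miR-23a-3p: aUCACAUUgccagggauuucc
miR-27a-3p: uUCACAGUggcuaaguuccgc
miR-27b-3p: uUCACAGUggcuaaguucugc
miR-24-3p: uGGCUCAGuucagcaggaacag
miR-24-2-5p: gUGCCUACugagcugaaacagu
miR-24-1-5p: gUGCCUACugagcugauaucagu

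miR-27a-3p and miR-27b-3p shared their seed and 20 of 21 bases, and differed by C19U (the base of miR-27a-3p, the position from the 5′ end, the base of miR-27b-3p). The seed of miR-24-3p was shared with 4 other names in the RefSeq table. miR-24-2-5p and miR-24-1-5p had the same seed and the same first 16 bases, and differed in their 3′ ends and in length, at 22 and 23 bases.

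Cluster a spanned 404 bases of chromosome 8 on the plus strand. On GRCm38 miR-23a-3p lay at chr8:84208563-84208583, miR-27a-3p at chr8:84208727-84208747, miR-24-2-5p at chr8:84208839-84208860 and 1 locus of miR-24-3p at chr8:84208875-84208896. No gene of GENCODE vM21 other than the miRNA genes overlapped these products, and the long non-coding RNA Gm26532 began at 84208920 on the same strand, in the last bases of the hairpin Mir24-2.

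Cluster b spanned 792 bases of chromosome 13 on the plus strand, within the protein-coding gene 2010111I01Rik and opposite to Fancc, a gene of the Fanconi anaemia DNA repair pathway. miR-23b-3p lay at chr13:63300529-63300549 in an intron of 2010111I01Rik. miR-27b-3p lay at chr13:63300760-63300780 and miR-24-1-5p at chr13:63301213-63301235, and both overlapped exons of transcripts annotated for nonsense-mediated decay. The other locus of miR-24-3p lay at chr13:63301251-63301272.

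**Figure D1:**
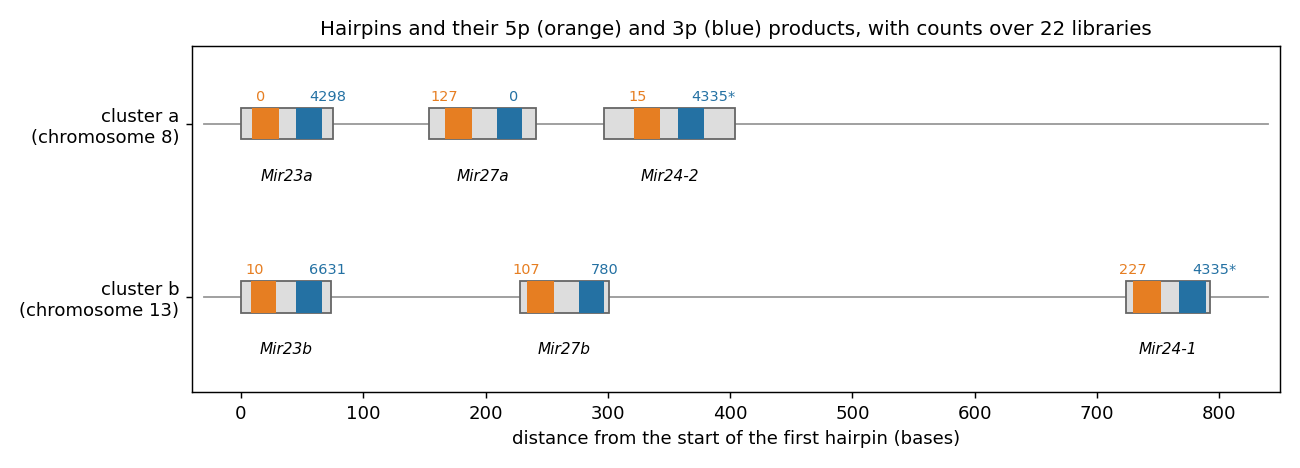
Hairpins (grey) of both clusters against the distance in bases from the start of the first hairpin, with the 5p products in orange, the 3p products in blue and the counts of each over all 22 libraries above it. The asterisk marks miR-24-3p, whose 4335 counts belong to both loci, and miR-27a is the hairpin with counts on its 5p product (127) and none on its 3p product.

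The 22 libraries held from 559957 to 3239357 counts, with every library of the KO batch (at most 1081333) below every library of the KI batch (at least 2067322). A count of 3, taken as the least that can be told from 0, was worth 0.926 to 5.36 CPM (a library's counts brought to a common total). Levels below are CPM scaled by the TMM method over all 22 libraries, and they are not divided by length because 1 read stands for 1 mature miRNA. The 6 listed miRNAs of meiotic and haploid germ cells came from the miR-34b, miR-34c, miR-449a and miR-449c hairpins. They summed to 170023 to 238792 CPM in the KO batch and to 338495 to 420409 CPM in the KI batch. Every library thus carried these markers, which do not tell RS from meiotic cells.

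Arms of the hairpins differed in abundance. Over all libraries miR-23a-3p had 4298 counts and miR-23a-5p had 0. miR-23b-3p had 6631 counts and miR-23b-5p had 10, while miR-27b-3p had 780 counts and miR-27b-5p had 107. In these 3 hairpins the 3p product held most of the counts, and in miR-27a it held none.

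miR-27a-3p is the miRNA usually counted as the working strand of its hairpin. Its 0 counts allowed a level of up to 0.0816 CPM over the 22 libraries together, in counting error only. Its partner strand miR-27a-5p had 127 counts, with at least 1 in each of the 22 libraries, so the hairpin itself was represented. Of the names with 1 locus, 54.3% of 416 with a mature length of 21 bases had 0 counts in every library, against 34.7% of 839 with 22 bases and 39.2% of 309 with 23 bases. miR-27a-3p and the 3 detected members of 21 bases (miR-23a-3p, miR-23b-3p and miR-27b-3p) belong to the first class. By the default scoring of the aligner's local mode a perfect read of 22 bases scores 44, under its minimum of 44.7, and a read of 23 bases scores 46, over its minimum of 45.1. Whether these defaults held, and their part in the 0 of miR-27a-3p, was not tested, because the table holds no read lengths.

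In the WT libraries of the KO batch miR-23b-3p was the most abundant member, at 209.7 to 239 CPM. miR-24-3p followed at 130.1 to 180.5 CPM and miR-23a-3p at 42.7 to 119 CPM, with no overlap between these neighbours. The order below them was not resolved, because miR-27b-3p (18.4 to 28.2 CPM) and miR-24-1-5p (11.97 to 36.9 CPM) overlapped. In KO the ranges of miR-23b-3p, miR-24-3p and miR-23a-3p all overlapped.

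In the WT libraries of the KI batch miR-23b-3p was again above the others, at 143 to 164 CPM. miR-24-3p (80.9 to 94.2 CPM) and miR-23a-3p (51.2 to 103 CPM) overlapped there, and miR-27b-3p was lowest of the 4 at 11.5 to 23.02 CPM. In KI the ranges of miR-23b-3p (152 to 187 CPM) and miR-23a-3p (94.7 to 178 CPM) overlapped, as did those of miR-23a-3p and miR-24-3p (92.4 to 121 CPM). The level of miR-24-3p against the others is uncertain, because it has 2 loci and its count was even in 21 of 22 libraries, so a read may have been entered once at each locus. With its counts divided by the number of loci it would stand at 0.5 of these levels.

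**Figure D2:**
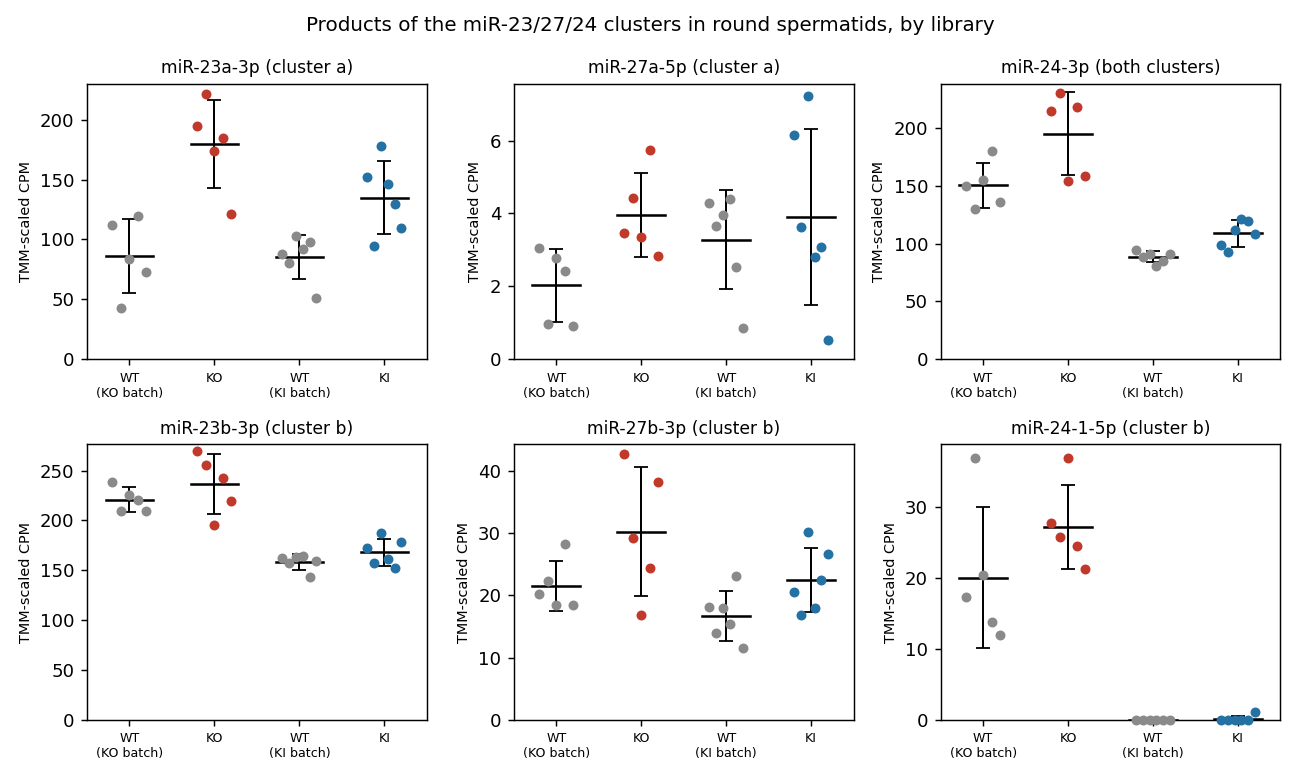
TMM-scaled CPM of 5 members and of miR-27a-5p in every library (points) of the 4 groups, with the mean (bar) and SD (whiskers), each panel on its own linear axis from 0. miR-23a-3p of the 5 KO libraries lies above all 5 WT libraries of its batch, and miR-24-1-5p lies at 0 in 11 of the 12 libraries of the KI batch.

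KO was compared with the WT libraries of its batch to see what changed without GRTH. The cluster a product miR-23a-3p rose and its cluster b paralog miR-23b-3p did not pass the test. miR-24-3p also rose, by less. Of the 7 members 5 passed the filter on low counts, and 2 of the 5 were called higher and 0 lower at an adjusted p under 0.1 (edgeR quasi-likelihood test, Benjamini-Hochberg adjustment over 334 miRNAs). Over all 334 miRNAs 21.3% were called higher, 20.7% lower and 41.9% in either direction. With library totals in place of TMM, 101 miRNAs were called higher and 44 lower, against 71 and 69, and the median of all miRNAs moved to 0.13. The median log2 fold change was 0.48 over the 5 members and 0.01 over all miRNAs.

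miR-23a-3p stood at 112, 42.7, 84.0, 119 and 72.7 CPM in WT replicates 1 to 5 and at 195.0, 221, 174, 185 and 122 CPM in KO replicates 1 to 5. All 5 KO libraries were above all 5 WT libraries, although KO replicate 5 exceeded WT replicate 4 by only a few CPM. Such separation in the higher direction was seen for 8.08% of the miRNAs tested. The log2 fold change was 1.09 (SE 0.24, 95% interval 0.56 to 1.61) with an edgeR adjusted p of 0.00724.

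miR-23b-3p stood at 239, 209.7, 225, 221 and 209.9 CPM in WT and at 270.0, 256, 196, 243 and 219 CPM in KO. KO libraries lay on both sides of the WT range. The log2 fold change was 0.12 (SE 0.10, 95% interval -0.09 to 0.34), with an edgeR adjusted p of 0.338.

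miR-24-3p stood at 149.9, 130.1, 155, 180.5 and 136 CPM in WT and at 215, 230.3, 154, 218 and 158 CPM in KO. KO replicates 3 and 5 fell within the WT range and the other 3 were above it. The change on the log2 scale, 0.40 (SE 0.14, edgeR adjusted p 0.0469), was past the threshold, but the call was lost without WT replicate 2, WT replicate 5, KO replicate 2 or KO replicate 4, with adjusted p up to 0.127. The counts do not divide miR-24-3p between the clusters.

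miR-27b-3p stood at 20.3, 22.3, 18.5, 28.2 and 18.4 CPM in WT and at 42.7, 29.2, 16.8, 24.4 and 38.2 CPM in KO. KO replicate 3 was the lowest of all 10 libraries and KO replicate 1 the highest. The log2 fold change was 0.50 (SE 0.24, 95% interval -0.03 to 1.02, edgeR adjusted p 0.129). It was past the threshold with library totals in place of TMM (adjusted p 0.0653), without WT replicate 4 (0.0834) and without KO replicate 3 (0.0474).

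miR-24-1-5p, the strand opposite to miR-24-3p in cluster b, stood at 17.2, 36.9, 20.3, 13.7 and 11.97 CPM in WT and at 27.7, 25.7, 36.9, 24.4 and 21.2 CPM in KO. WT replicate 2 was level with the highest KO library, while the other 4 WT libraries were below all of KO. The log2 fold change was 0.48 (SE 0.30, edgeR adjusted p 0.220), and without WT replicate 2 it was 0.82 with an adjusted p of 0.0231.

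The remaining 2 members were too low to enter this test. miR-24-2-5p, the cluster a counterpart, had 5 counts over the WT libraries and 10 over the KO libraries, and a fit with no filter gave an edgeR adjusted p of 0.416. miR-27a-5p, which is no member but the only strand counted from the miR-27a hairpin, had 11 counts in WT and 17 in KO, with an adjusted p of 0.437 in the same fit.

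KI was compared with the WT libraries of its own batch to see what changed without phosphorylated GRTH. The same 2 names, miR-23a-3p and miR-24-3p, were called higher, and 0 members were called lower. In this batch 4 of the 7 members passed the filter, so 2 of 4 were called higher, against 18.1% of 387 miRNAs tested. Over all 387 miRNAs 19.9% were called lower and 38.0% in either direction. With library totals 96 were called higher and 53 lower, against 70 and 77. The median log2 fold change was 0.37 over the 4 members and 0.00 over all miRNAs.

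miR-23a-3p ranged from 51.2 to 103 CPM (median 89.8) in WT and from 94.7 to 178 CPM (median 138) in KI. KI replicate 2 lay within the WT range and the other 5 KI libraries were above it. None of the 4 members tested had all KI libraries above all WT libraries, a separation seen for 3.62% of the miRNAs. The log2 fold change was 0.68 (SE 0.18, 95% interval 0.29 to 1.06) with an edgeR adjusted p of 0.0120.

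miR-24-3p ranged from 80.9 to 94.2 CPM (median 89.9) in WT and from 92.4 to 121 CPM (median 110.2) in KI. KI replicate 2 again lay within the WT range. The log2 fold change was 0.32 (SE 0.088, 95% interval 0.13 to 0.51) with an edgeR adjusted p of 0.0152.

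miR-27b-3p ranged from 11.5 to 23.02 CPM (median 16.7) in WT and from 16.8 to 30.1 CPM (median 21.6) in KI, and the groups overlapped. The change on the log2 scale, 0.43 (SE 0.19, edgeR adjusted p 0.110), stayed short of the threshold here but was past it under 5 of 6 other settings, among them DESeq2 (adjusted p 0.0782). miR-23b-3p ranged from 143 to 164 CPM (median 161) in WT and from 152 to 187 CPM (median 167) in KI. These ranges overlapped, and the log2 fold change was 0.11 (SE 0.076, 95% interval -0.06 to 0.27, edgeR adjusted p 0.306).

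miR-27a-5p had 42 counts in the WT libraries and 57 in the KI libraries of this batch and did not pass the filter, with an adjusted p of 0.606 in the edgeR fit with no filter. Of the 7 related products of the same or the antisense hairpins, miR-3074-5p alone entered the KO and the KI test. It comes from the strand opposite to miR-24 and was not called in KO (log2 fold change -0.36, SE 0.28, edgeR adjusted p 0.333) or in KI (-0.13, SE 0.29, adjusted p 0.753). miR-23a-5p and miR-3074-2-3p had 0 counts in all libraries.

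**Figure D3:**
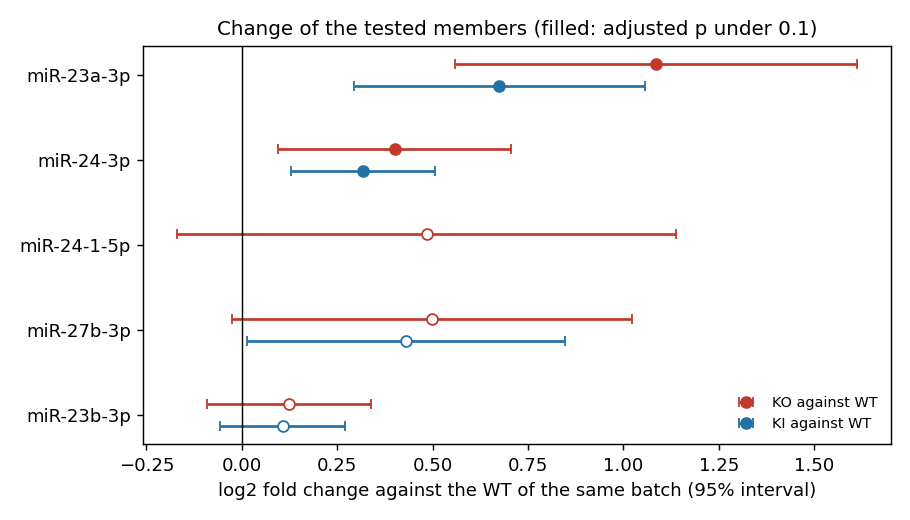
Log2 fold change of KO (red) and KI (blue) against the WT of the same batch with 95% intervals, filled where the edgeR adjusted p is under 0.1. miR-23a-3p has the largest estimate in both comparisons among the members tested, at 1.09 and 0.68, and miR-23b-3p the smallest, at 0.12 and 0.11.

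The KO effect and the KI effect were compared in 1 fit of all 4 groups. For miR-23a-3p the KO effect exceeded the KI effect by 0.40 on the log2 scale (SE 0.30, 95% interval -0.23 to 1.03, edgeR adjusted p 0.548). The difference was 0.08 for miR-24-3p (95% interval -0.26 to 0.42), 0.06 for miR-27b-3p (-0.59 to 0.71) and 0.01 for miR-23b-3p (-0.24 to 0.27). For miR-24-1-5p the fitted difference of -1.10 (95% interval -2.90 to 0.71) rested on 2 counts in the KI batch, all in KI replicate 6, and was 0.46 without that library, so it gives no direction. No member was called, and neither was any other of the 421 miRNAs by edgeR or DESeq2 (0% called, 67 at an unadjusted edgeR p under 0.05). Over all miRNAs 26 were called without KI replicate 2 and 25 with a block for the replicate number, in both cases without a member.

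The balance between the clusters was measured within each library, where the scale of the library does not enter. How far reads of miR-23a-3p and miR-23b-3p were told apart was not tested. In the KO batch miR-23a-3p made up 32.0, 16.9, 27.2, 35.1 and 25.7% of the counts of miR-23a-3p and miR-23b-3p in WT replicates 1 to 5. It made up 41.9, 46.4, 47.1, 43.3 and 35.7% in KO replicates 1 to 5. Every KO library was above every WT library, with means of 42.9% ± 4.56 (SD, n = 5) and 27.4% ± 6.94 (SD, n = 5).

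The mean log2 ratio of miR-23a-3p to miR-23b-3p was higher by 1.02 in KO, with a two-sided exact permutation p of 0.00794, the smallest that 5 against 5 libraries allow. After adjustment over the 4 ratio tests that could be computed this exact permutation p was 0.0317. In KI the share ranged from 37.6 to 48.7% (median 46.4%), against 24.3 to 40.7% (median 35.5%) in WT, and 4 of 6 KI libraries were above all WT libraries. The mean log2 ratio was higher by 0.58 in KI (exact permutation p 0.0173, adjusted 0.0346). Between WT of both batches it was higher by 0.52 in the KI batch (exact permutation p 0.0866, adjusted 0.115). This value changed with the libraries used. It was 0.31 without WT replicate 2 of the KO batch (adjusted exact permutation p 0.279), 0.66 without WT replicate 4 of that batch (0.0635) and 0.66 without WT replicate 6 of the KI batch (0.0404).

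**Figure D4:**
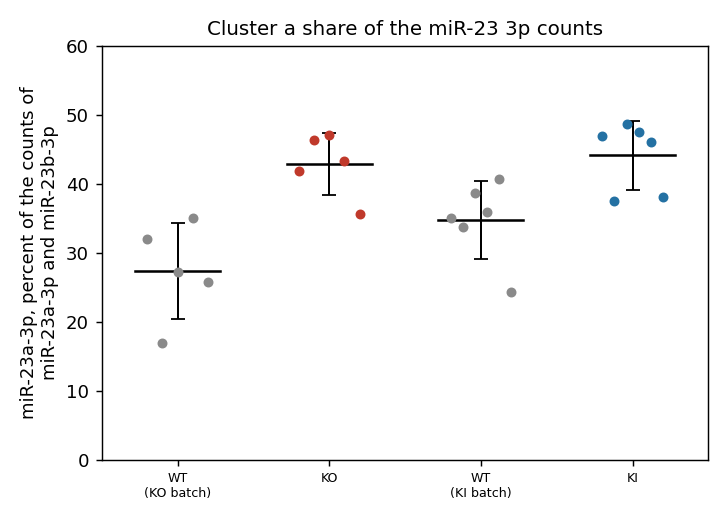
Share of miR-23a-3p in the counts of miR-23a-3p and miR-23b-3p, in percent, for every library (points) of the 4 groups, with the mean (bar) and SD (whiskers). The means are 27.4% in WT and 42.9% in KO, and 34.7% in WT and 44.1% in KI.

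For the 5p strands of miR-24 the ratio of miR-24-2-5p to miR-24-1-5p could be tested in the KO batch alone. miR-24-2-5p made up 0 to 10.53% of the pair in WT and 0 to 11.8% in KO, and the mean log2 ratio differed by 0.44 (exact permutation p 0.508, adjusted 0.508). It was -0.15 without WT replicate 2 and 1.03 without KO replicate 2, the libraries of each group with 0 counts of miR-24-2-5p. The other 5 of the 9 ratio tests had a product at 0 in whole groups and were not computed. The ratio of miR-27a-5p to miR-27b-5p, looked at after the 0 of miR-27a-3p had been seen, did not pass the test in KO (exact permutation p 0.659) or in KI (0.788), on 1 to 18 counts a library for either strand. Between the WT libraries of both batches it differed by 1.58 on the log2 scale, toward miR-27a-5p in the KI batch (exact permutation p 0.0325, adjusted 0.0974 over these 3 tests).

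WT libraries were compared between the batches to see how far levels depend on the batch. Of the 5 members tested, 4 were called lower in the KI batch and 0 higher, against 29.8% of 383 miRNAs called lower, 26.9% called higher and 56.7% in either direction. With library totals 47 were called higher and 193 lower, against 103 and 114, and the median of all miRNAs moved to -0.34, so the member values below are relative to the TMM scale. Batch, sequencing depth and everything else that differed between the runs cannot be told apart here.

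miR-24-3p fell by 0.82 on the log2 scale from the KO batch to the KI batch (SE 0.10, edgeR adjusted p 5.5e-06). miR-23b-3p fell by 0.54 (SE 0.088, adjusted p 0.000115). All WT libraries of the KI batch were below all WT libraries of the KO batch for both, as for 18.5% of all miRNAs tested. miR-27b-3p fell by 0.41 (SE 0.20, adjusted p 0.0982), a call lost with DESeq2 and in 9 of the 11 fits that left out 1 library. miR-23a-3p differed by -0.06 (95% interval -0.53 to 0.42, edgeR adjusted p 0.845). With library totals its difference was -0.40 (adjusted p 0.192) and that of miR-24-3p -1.15.

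miR-24-1-5p was counted in 1 batch almost exclusively. Its counts in the WT libraries of the KO batch were 17, 38, 22, 17 and 13, and those in KO were 24, 29, 33, 17 and 15. All 6 WT libraries of the deeper KI batch had 0 counts, and in KI replicate 6 had 2 counts and the others 0. Set against 3 counts over the 6 WT libraries, the level was at least 86.7-fold lower in the KI batch. Of the 281 names with at least 100 counts in the WT libraries of the KO batch it was the single one with 0 counts in the WT libraries of the KI batch. miR-24-2-5p, with the same first 16 bases, had 15 counts in the KO batch and 0 in the KI batch. miR-24-3p from the same hairpins had 1164 counts in the WT libraries of the KI batch.

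Which miRNAs varied together with each member was described by the Pearson correlation of log2 CPM over the 22 libraries after the mean of each of the 4 groups had been removed, among 329 miRNAs. The libraries came from 2 batches of different depth, and the values are a description with no test. The members correlated with one another at 0.28 to 0.55. For miR-23a-3p the 3 highest were miR-199a-5p (0.93), miR-199a-3p (0.92) and miR-199b-3p (0.92), miRNAs of mesenchymal cells, of which the last 2 share their sequence and their reads.

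miR-24-3p was most like miR-150-5p (0.82), a miRNA of lymphocytes, then let-7e-5p (0.79) and miR-26a-5p (0.76). miR-27b-3p was most like miR-96-5p (0.80), miR-1843a-5p (0.62) and miR-147-5p (0.54). miR-23b-3p was most like miR-741-5p (0.68), a miRNA of the testis, and the blood cell miRNAs miR-142a-5p (0.66) and miR-142a-3p (0.66).

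The stromal miRNAs also moved with the genotype. A list of 7 miRNAs of smooth muscle and stroma held both strands of miR-143, miR-145a and miR-199a, and miR-214-3p. None of the 7 was at 0 in all libraries, and 4 were tested. All 4 were called higher in KO and in KI, against 21.3% and 18.1% of all miRNAs tested. The 4 were both strands of miR-199a, miR-143-3p and miR-145a-5p, so they are not 4 independent measures. The summed level of the 7 was 634 to 1857 CPM in WT and 1812 to 3743 CPM in KO. It was 1203 to 2041 CPM in WT and 2064 to 4785 CPM in KI. Most of this sum was miR-199a, whose 3p and 5p strands averaged 1677 and 507 CPM over the 22 libraries. miR-199b-3p, which has the sequence of miR-199a-3p, averaged 838 CPM. A read of miR-199a-3p may thus have been entered at more than 1 locus, so its part of the sum is uncertain. In each batch the WT library with the lowest sum also had the lowest miR-23a-3p (replicate 2 of the KO batch and replicate 6 of the KI batch).

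Over the 22 libraries, with group means removed, the log2 of this sum correlated with miR-23a-3p at 0.93, with miR-24-3p at 0.54, with miR-23b-3p at 0.38 and with miR-27b-3p at 0.28. Because most of the sum is miR-199a, the 0.93 largely repeats the correlations of the miR-199a strands given above. Of 8 blood and immune miRNAs 6 were tested. Of these 3 were called higher in KO and 5 in KI, against 21.3% and 18.1% of all miRNAs tested. The 2 miRNAs of the gonadal soma, miR-202-5p and miR-202-3p, had negative log2 fold changes in both comparisons. Both were called lower in KI and neither in KO, with a median log2 fold change of -0.71 in KI and -0.61 in KO. Of the 6 germ cell miRNAs, miR-34b-5p and miR-34c-5p were called lower and miR-449c-5p higher in KO, and miR-34c-5p was called lower in KI. Of 3 spermatogonial miRNAs 2 were tested, with a median log2 fold change of 0.41 in KO and 0.22 in KI. Of these miR-221-3p was called higher in KO and none in KI. The 1 endothelial miRNA tested, miR-126a-3p, was not called in KO (log2 fold change 0.38, SE 0.29) or KI (-0.04, SE 0.25). In a bulk sample more cells of a type and more RNA per cell cannot be told apart, and the part of other cell types in the levels of miR-23a-3p and miR-24-3p was not tested.

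**Figure D5:**
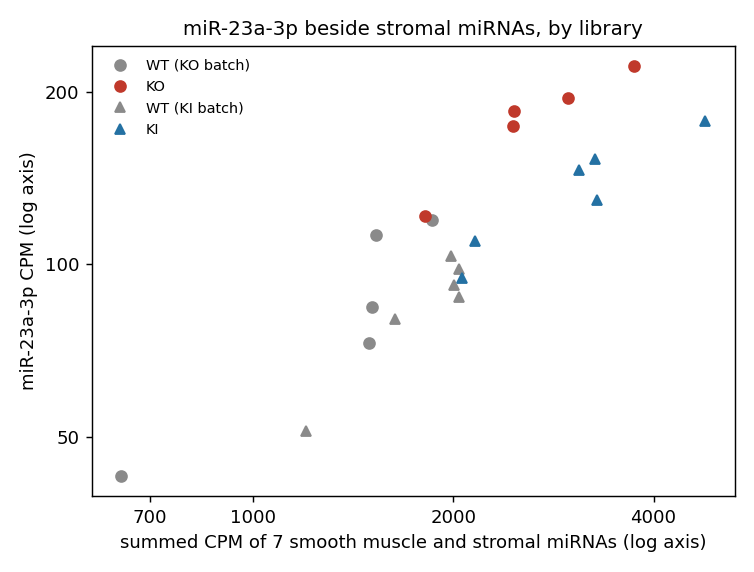
miR-23a-3p in CPM against the summed CPM of 7 smooth muscle and stromal miRNAs, both on log axes, with 1 point per library (circles, KO batch; triangles, KI batch; grey, WT). Libraries with a higher stromal sum tend to have a higher miR-23a-3p, within WT as well as in KO and KI (r = 0.93 after removal of group means, 22 libraries). Most of the sum is miR-199a.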

How the data were processed

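The deposited table gives raw counts for each mature miRNA name in 22 libraries. Per the file headers and the study's methods, reads had their adapters trimmed by the authors (cutadapt 3.4) and were aligned to GRCm38 with Bowtie2 2.4.2 in local mode with up to 100 alignments a read, and then counted strand-specifically on miRBase mature miRNAs with featureCounts of Subread 2.0.1, with no option for multi-mapped reads. Versions are from the submitters' processing notes. Names with 2 loci had mostly even counts. Local alignment by default scoring would drop reads of 22 bases or fewer, so counts may come from longer reads. Length of the annotated product, a column of the deposited table that no sample owns, is given in bases.

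Here counts were tested with the edgeR 4.0.16 quasi-likelihood test (R 4.3.3; TMM, filterByExpr), 1 fit per comparison over all miRNAs, with genotype or batch as the only term, with a call where the p adjusted by Benjamini-Hochberg was under 0.1. The study used DESeq2, run here (1.42.0) as an alternative. Ratios of paralogs used log2 of counts plus 0.5 and two-sided exact permutation tests over libraries, with 9 tests planned and adjustment over the 4 that could be computed. CPM are TMM-scaled, with a prior count of 2 on the log2 scale for correlations and for log2 CPM. Alternatives were DESeq2, library size or RLE scaling, no filter, counts divided by loci, each library left out, a block for the replicate number, and a pseudocount of 1 or TMM log2 CPM for the ratios. The names given are the 7 members, 7 other products of the same or antisense hairpins, marker lists, and for each detected member, miR-24-1-5p and miR-24-2-5p aside, the 3 miRNAs with the highest correlation among those with a mean of at least 10 CPM. Members, lists and tests were chosen with earlier results of these data known.

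Library totals were 870913 to 1081333 in WT and 559957 to 881323 in KO, and 2067322 to 3239357 in WT and 2107461 to 3101145 in KI. Floors of 3 counts cover counting error only, because reads are not independent molecules. The study names the KI batch first, and groups follow the batch label of each sample. No 2 libraries of a group agreed within sampling noise (chi-square per degree of freedom at least 7.28). Sequences are from RefSeq, annotation from GENCODE vM21. Figures used Python 3.11.15 and matplotlib. No column of per-sample values was left unused (0 columns).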

Additional observations from a re-analysis of the deposited data

Results flagged for a closer look

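Of 25 sets of values screened (members and ratios within a group), 3 had a library whose gap to its nearest neighbour was large against its group's range. Chance alone would give about 1.25, or 1 in 20, for independent sets of normally spread values. miR-23a-3p in WT replicate 6 of the KI batch was low, at a log2 CPM of 5.71 (120 counts) against 6.35 to 6.71 in the other 5 libraries, a gap of 0.637 of the range. The same library had the lowest sum of stromal miRNAs of its group, at 1203 CPM.

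miR-23b-3p in WT replicate 5 of the KI batch was low, at a log2 CPM of 7.17 (398 counts) against 7.31 to 7.37 in the others, a gap of 0.686 of the range. miR-24-1-5p in KI replicate 6 was the only nonzero library of the KI batch, with 2 counts. Its log2 CPM was 1.17 against 0.26 in the others, which is the value that the prior count gives to 0 counts. With the others tied at 0 counts any count would be flagged, so this flag cannot be set against chance.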

How the results depend on the processing

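Of 426 values recomputed for 23 results on members and ratios, 0 changed direction past the threshold, 17 lost a call and 16 gained one. miR-23a-3p was called higher in every fit run, with log2 fold changes of 0.92 to 1.23 in KO and 0.57 to 0.76 in KI when each library was left out in turn. The members called in KO were 1 with no filter on low counts (miR-24-3p then had an adjusted p of 0.149), 3 with library size only, and 1 to 3 without 1 library. In KI they were 4 with library size only. The cause was not tested. The ratio of miR-23a-3p to miR-23b-3p between WT of both batches differed by 0.31 to 0.66 without 1 library, with the larger values without WT replicate 4 of the KO batch (adjusted exact permutation p 0.0635) or WT replicate 6 of the KI batch (0.0404). The replicate numbers share no stated origin, and same-numbered libraries deviated together at a mean r of 0.03 in KO (2 of 5 pairs over 0.1) and 0.19 in KI (3 of 6 over 0.1), so they were not taken as pairs. With a replicate block the miRNAs called numbered 124 in KO and 165 in KI, against 140 and 147 without it, and miR-27b-3p in KI had an adjusted p of 0.0703. Sign flips of same-numbered libraries (exact) left the ratio of miR-23a-3p to miR-23b-3p at an adjusted p of 0.0938 in KO and in KI. Every KO and KI library had a higher ratio than the WT library of its number. The unadjusted sign-flip p was thus the smallest that these numbers of pairs allow. WT between batches was not part of this adjustment. For the difference between the KO and KI effects 25 miRNAs were called with the block, none of them a member, and 0 to 26 without 1 library (26 without KI replicate 2). A count of 3 was worth up to 5.36 CPM in the shallowest library. miR-24-2-5p had at most 4 counts and miR-27a-5p at most 5 in a library of the KO batch. Their lack of a call there does not show that they were unchanged.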
